A study of Homo sapiens with 18 samples.

Results

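CA1, CA2, CA8 and CA13 are members of the carbonic anhydrase gene family on human chromosome 8, and they were taken by gene symbol from a deposited table of 13358 genes, in which all 4 are present. They were chosen by name after their levels in these 18 libraries, and the differences between groups, had been seen, so the levels of the 4 genes and the differences between groups are given here as descriptions with their spread, and without p-values. RNA of HUDEP1, a human line of erythroid progenitors immortalised from cord blood, was measured by sequencing of stranded poly(A) libraries, in 18 libraries that fall into 6 groups of 3.

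The cells expressed either the short isoform of the transcription factor GATA1, in the clones GATA1s_1KI9 and GATA1s_1D5, or full-length GATA1, in a single clone (GATA1FL, below FL). GATA1s lacks the amino-terminal part of the protein. Each clone was sampled at day 4 of differentiation and in expansion. All groups received EPO at 3 U/mL, human SCF at 50 ng/mL and doxycycline at 1 μg/mL. The differentiation medium, based on IMDM, also held insulin (10 μg/mL), holo-transferrin (1 mg/mL), heparin (3 U/mL), AB serum (3%) and FBS (2%). The expansion medium, based on SFEM II, also held dexamethasone (1 μM), which the differentiation medium lacked. With 1 FL clone, the GATA1 genotype and the clone cannot be told apart, and nothing in the labels says that the 3 libraries of a group are separate cultures, so their spread may be technical. The 3 FL libraries of a condition serve the comparisons of both GATA1s clones.

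Carbonic anhydrases are zinc enzymes that convert carbon dioxide and water to bicarbonate and a proton, and back. Red cells hold large amounts of the cytosolic enzymes CA1 and CA2, which work together with the anion exchanger of the red cell membrane in carbon dioxide transport. CA2 is the fast enzyme and is made in many tissues, while CA1 is slower, is abundant in adult human red cells and low in fetal ones. CA13 is another cytosolic enzyme. CA8 is a carbonic anhydrase-related protein that has lost the zinc-binding residues needed for catalysis, and it binds the inositol trisphosphate receptor ITPR1.

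The 3 active enzymes lie in one stretch of chromosome 8 (GRCh38), with CA3 between CA1 and CA2: CA13 at chr8:85220587-85284073 on the plus strand, CA1 at chr8:85327608-85379014 on the minus strand and CA2 at chr8:85463852-85481493 on the plus strand. CA8 lies apart from them, at chr8:60187347-60281412 on the minus strand. GENCODE release 29 gives CA1 25 transcripts from 11 start positions, against 5 transcripts for CA2, 4 for CA8 and 5 for CA13, and the table holds 1 value per gene, so a change of start or isoform cannot be seen. CA1 overlaps CA3 on the opposite strand, CA2 overlaps the antisense gene CA3-AS1, and CA13 overlaps a pair of antisense genes. Whether counting used the strand is not stated in any source at hand, so reads from these partners cannot be told apart from those of the members.

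The erythroid label was borne out by its markers: all 11 genes of an erythroid list (among them KLF1, ALAS2 and AHSP) averaged at least 1 in every group. Their summed level was 61315 to 68675 in 1KI9, 101527 to 117280 in 1D5 and 199649 to 207183 in FL at day 4. In expansion it was 27053 to 30737 in 1KI9, 29307 to 43320 in 1D5 and 32501 to 62777 in FL. At day 4, 10 of the 11 fell in both GATA1s clones relative to FL, and 1, GATA1 itself, rose (limma, adjusted p under 0.05 in each). Over all genes, 14.3% were called lower and 51.2% higher at day 4. In expansion 5 fell (4 with equal library totals) and GATA1 rose, beside 8.98% of all genes called lower and 17.5% higher. GATA1 averaged 925 ± 21.1 in 1KI9, 1059 ± 37.5 in 1D5 and 231 ± 8.75 in FL at day 4 (SD, n = 3 each), and a value per gene does not show which isoform was made. Expansion values are TPM, a transcript level scaled by transcript length and library total. Day-4 values were treated as a scaled form of TPM, because their library sums run from 814583 to 1081251. Levels at day 4 and in expansion thus come from parts of the table that were scaled apart. The day-4 sums also differed by clone without overlap, at 814583 to 857123 in 1KI9, 874292 to 945379 in 1D5 and 1045885 to 1081251 in FL. In bulk RNA, a change in the share of cells of one kind and a change in the RNA per cell cannot be told apart.

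CA1 ran from 8.44 to 101.20 over the 18 libraries. At day 4 it stood at 78.94, 76.65 and 72.61 in 1KI9, 97.58, 101.20 and 93.34 in 1D5, and 76.07, 72.45 and 74.06 in FL (scaled TPM). In expansion the values were 68.23, 59.96 and 66.20 TPM in 1KI9, 40.12, 43.33 and 37.93 TPM in 1D5, and 8.44, 11.55 and 9.76 TPM in FL. All libraries of both GATA1s clones in expansion lay above every FL library in expansion, while at day 4 the 1KI9 and FL libraries overlapped and the 1D5 libraries lay above both. From high to low the group means ran 1D5 at day 4 (97.4 ± 3.93), 1KI9 at day 4 (76.1 ± 3.21), FL at day 4 (74.2 ± 1.81), 1KI9 in expansion (64.8 ± 4.31), 1D5 in expansion (40.5 ± 2.72) and FL in expansion (9.92 ± 1.56). Of these neighbours only 1KI9 and FL at day 4 overlapped.

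CA1 in expansion was 6.53-fold higher in 1KI9 and 4.08-fold higher in 1D5 than in FL. On the log2(value + 1) scale used for all differences below, that is 2.60 ± 0.08 for 1KI9 and 1.93 ± 0.08 for 1D5 (estimate ± SE of the fit to all 18 libraries). At day 4 the differences from FL were 0.03 ± 0.08 for 1KI9 and 0.39 ± 0.08 for 1D5. With median-of-ratios scaling of the libraries they were -0.35 for 1KI9 and 0.057, without a call, for 1D5. With equal library totals the 1KI9 difference moved the other way, to a larger positive value with a call, as given below.

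CA2 was the most abundant member in every group. At day 4 it stood at 86.45, 91.58 and 87.86 in 1KI9, 136.23, 136.88 and 133.70 in 1D5, and 220.97, 219.87 and 225.69 in FL (scaled TPM). In expansion the values were 251.05, 293.92 and 301.75 TPM in 1KI9, 304.77, 332.00 and 356.62 TPM in 1D5, and 297.64, 347.73 and 330.69 TPM in FL. The 3 clones did not overlap at day 4, with 1KI9 lowest and FL highest; in expansion both GATA1s clones overlapped FL, and 1KI9 lay just below 1D5. The order of the group means was 1D5 in expansion (331.1 ± 25.9), FL in expansion (325.4 ± 25.5), 1KI9 in expansion (282.2 ± 27.3), FL at day 4 (222.2 ± 3.09), 1D5 at day 4 (135.6 ± 1.68) and 1KI9 at day 4 (88.6 ± 2.65). FL in expansion overlapped both of its neighbours in this order, and no other neighbours overlapped.

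At day 4 the CA2 level was 2.51-fold lower in 1KI9 and 1.64-fold lower in 1D5 than in FL. The log2 differences were -1.32 ± 0.07 and -0.71 ± 0.07, and they kept their sign and call under both other scalings. In expansion the log2 differences from FL were -0.21 ± 0.07 for 1KI9 and 0.03 ± 0.07 for 1D5. The first of these lost its call without 1KI9 replicate 1 (-0.12), without FL replicate 2 (-0.16), without FL replicate 3 (-0.19), and in a fit of the compared libraries alone.

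CA8 ran opposite to CA1 in the expansion libraries. Its day-4 values were 63.18, 63.52 and 64.61 in 1KI9, 43.52, 42.16 and 41.87 in 1D5, and 75.04, 74.90 and 77.03 in FL (scaled TPM). The expansion values were 21.15, 19.19 and 20.39 TPM in 1KI9, 21.78, 23.51 and 17.96 TPM in 1D5, and 69.51, 114.95 and 76.93 TPM in FL. Every FL library lay above every GATA1s library in both conditions, and the 2 GATA1s clones overlapped in expansion but not at day 4. The group means ran FL in expansion (87.1 ± 24.4), FL at day 4 (75.7 ± 1.19), 1KI9 at day 4 (63.8 ± 0.747), 1D5 at day 4 (42.5 ± 0.881), 1D5 in expansion (21.1 ± 2.84) and 1KI9 in expansion (20.2 ± 0.988). The first pair and the last pair of this order overlapped.

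In expansion CA8 was 4.30-fold lower in 1KI9 and 4.13-fold lower in 1D5 than in FL, with log2 differences of -2.02 ± 0.13 and -1.97 ± 0.13. Replicate 2 of FL in expansion, at 114.95 TPM, stood above the other two; without it the differences were -1.80 for 1KI9 and -1.76 for 1D5. The FL library with the highest erythroid marker sum in expansion was replicate 1 (62777), while replicate 2 had the lowest (32501). At day 4 the differences from FL were -0.24 ± 0.13 for 1KI9 and -0.82 ± 0.13 for 1D5; that of 1KI9 was -0.63 with median-of-ratios scaling and 0.093 with equal library totals, while that of 1D5 kept its sign and call.

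CA13 was near the lower end of what the table lists. Its day-4 values were 0.31, 0.28 and 0.45 in 1KI9, 0.25, 0.15 and 0.34 in 1D5, and 0.13, 0.16 and 0.24 in FL (scaled TPM). In expansion they were 1.22, 0.98 and 1.10 TPM in 1KI9, 0.29, 0.52 and 0.24 TPM in 1D5, and 0.24, 0.30 and 0.26 TPM in FL. The 1KI9 libraries in expansion stood above all others, at 4.13 times the FL mean and 3.14 times the 1D5 mean. CA13 reached a value of 1 in only 2 libraries, below the minimum of 3 set for the fit, so the calls below are for CA1, CA2 and CA8, which is 3 of the 4 members. Fitted with no minimum, CA13 in expansion differed by 0.73 ± 0.08 between 1KI9 and FL, by 0.09 ± 0.08 between 1D5 and FL and by 0.64 ± 0.08 between 1KI9 and 1D5, and day 4 differed from expansion by -0.64 ± 0.08 in 1KI9. The 1KI9 libraries in expansion also held the highest sums of macrophage and megakaryocyte markers among the expansion groups. Of the tested genes of the eosinophil, basophil and mast cell list, TPSB2, FCER1A, TPSAB1 and HDC were higher there than in FL, while PRG2 was lower. The sum of that list was lower there as well, at 143 TPM against 678 TPM in FL, as given below. Any link of these markers with CA13 was not tested.

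**Figure D1:**
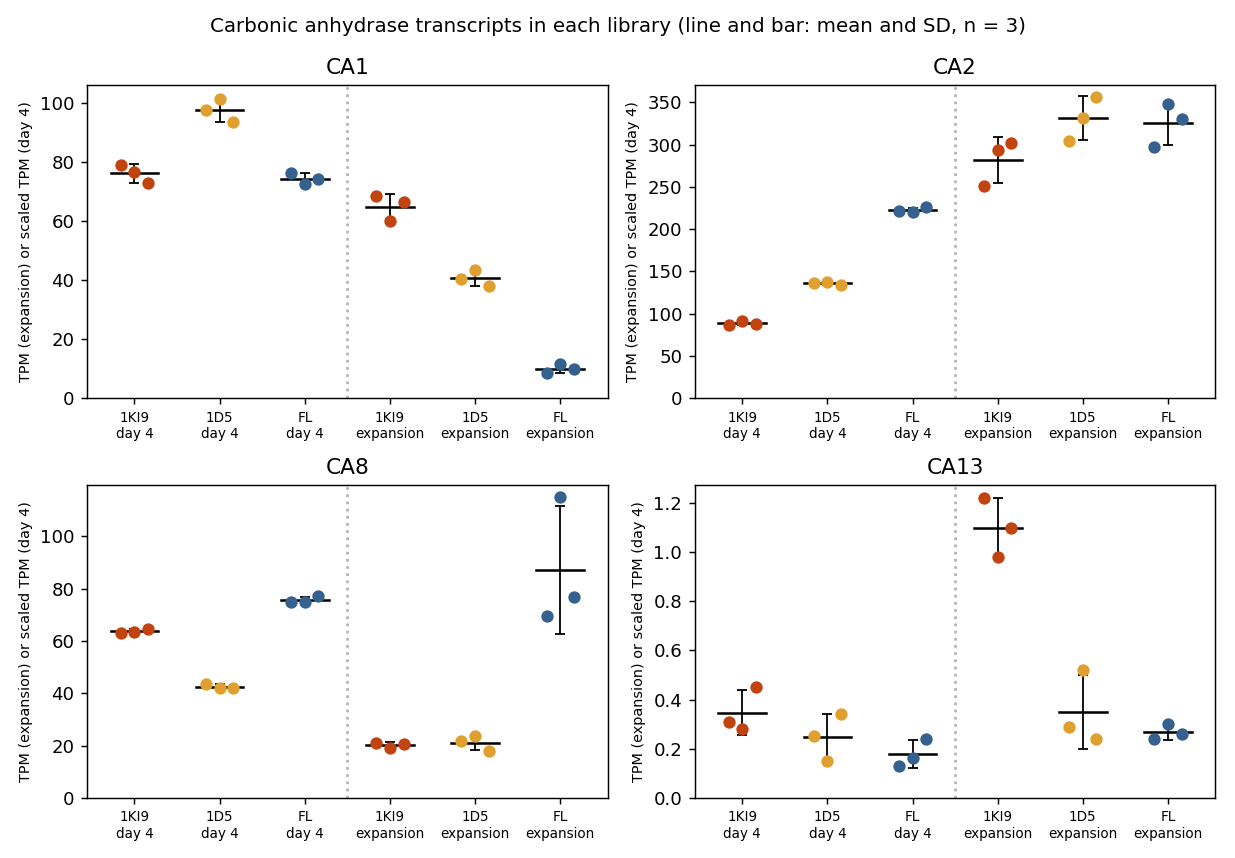
Level of CA1, CA2, CA8 and CA13 in each of the 18 libraries, in TPM for expansion and scaled TPM for day 4; points are libraries, the line is the group mean and the bar the SD (n = 3). CA1 in expansion is at 8.44 to 11.55 TPM in FL and at 37.93 TPM or more in every GATA1s library, and CA8 in expansion is at 23.51 TPM or less in every GATA1s library and at 69.51 to 114.95 TPM in FL.

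Of the 3 fitted members, 2 were called in both GATA1s clones against FL in expansion: CA1 was called higher and CA8 lower. Over all genes tested, 26.4% were called in both clones in the same direction (limma, Benjamini-Hochberg adjusted p under 0.05 in each), 17.5% as higher and 8.98% as lower. At day 4 only CA2 was called in both clones, as lower, where 65.5% of all genes were called, 51.2% as higher and 14.3% as lower. Nothing is read from these counts, because the genes were chosen with these comparisons known. As deposited, 66.0% of the genes called in expansion and 78.2% of those called at day 4 were higher in the GATA1s clones; with median-of-ratios scaling the shares were 48.8% and 46.0%, and with equal library totals the day-4 share was 89.7%. The median gene differed by 0.29 between the mean of the GATA1s clones and FL at day 4, and by 0.06 in expansion. Relative to that median, at day 4 CA1 differed by -0.08, CA2 by -1.3 and CA8 by -0.82, and in expansion CA1 differed by 2.20, CA2 by -0.15 and CA8 by -2.06.

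The GATA1s clones also differed from each other. In the comparison of 1KI9 with 1D5 at day 4, CA1 was lower (-0.35 ± 0.08), CA2 was lower (-0.61 ± 0.07) and CA8 was higher (0.57 ± 0.13), so 3 of 3 fitted members were called, beside 19.2% of all genes. In expansion CA1 was higher in 1KI9 (0.67 ± 0.08) and CA2 lower (-0.23 ± 0.07), while CA8 differed by -0.05 ± 0.13; 2 of 3 were called, beside 40.6% of all genes. CA1 thus had the opposite sign between the GATA1s clones at day 4 and in expansion. The call of CA2 in expansion was lost without 1KI9 replicate 1 (-0.15) and without 1D5 replicate 3 (-0.18).

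Within a clone, the change between day 4 and expansion depended on the gene. CA1 was 1.17-fold higher at day 4 than in expansion in 1KI9, 2.41-fold in 1D5 and 7.48-fold in FL, with log2 differences of 0.23 ± 0.08, 1.25 ± 0.08 and 2.79 ± 0.08. CA2 was lower at day 4 in all 3 clones, by 3.18-fold in 1KI9, 2.44-fold in 1D5 and 1.46-fold in FL, where the log2 difference of -0.55 ± 0.07 was -0.075 and not called with median-of-ratios scaling. CA8 was 3.15-fold higher at day 4 in 1KI9 and 2.02-fold higher in 1D5, whereas in FL the libraries of the conditions overlapped and the difference was -0.17 ± 0.13. The 1KI9 difference for CA1 lost its call without 1KI9 day-4 replicate 1 (0.20) or without 1KI9 expansion replicate 2 (0.18). The CA8 difference in FL was 0.048 without FL expansion replicate 2, and -0.31 with a call without FL expansion replicate 1.

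Called at day 4 against expansion were 3 of 3 fitted members in 1KI9, 3 of 3 in 1D5 and 2 of 3 in FL, beside 74.4%, 78.9% and 83.7% of all genes. The difference of the GATA1s clones from FL at day 4 minus the same difference in expansion was -2.05 ± 0.10 for CA1, -0.92 ± 0.09 for CA2 and 1.46 ± 0.15 for CA8. All 3 were called, as were 65.1% of all genes.

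**Figure D2:**
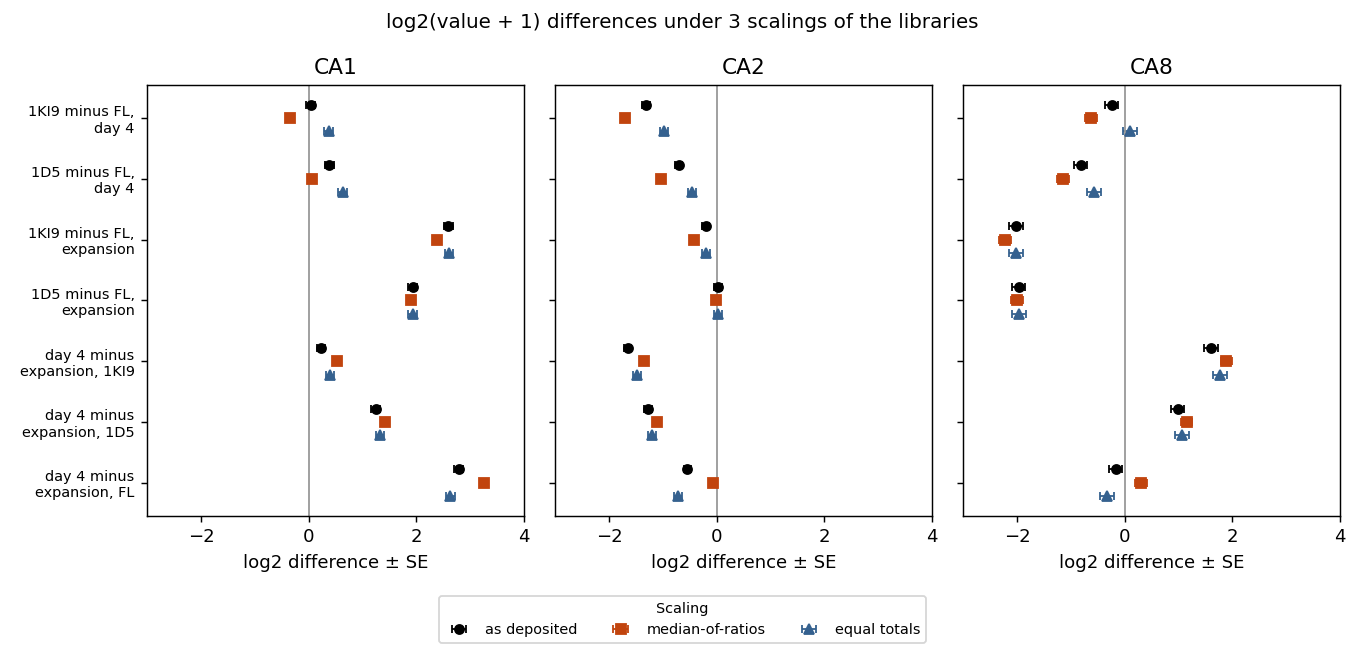
log2(value + 1) differences of CA1, CA2 and CA8 with their SE, for the GATA1s clones minus FL and for day 4 minus expansion, under the deposited scaling, median-of-ratios scaling and equal library totals. The expansion differences of CA1 and CA8 and the day-4 differences of CA2 lie on the same side of 0 under all 3, while CA1 in 1KI9 minus FL at day 4 runs from -0.35 to 0.37 and CA8 in day 4 minus expansion for FL from -0.33 to 0.30.

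Shares and ratios within a library are unchanged by any scaling that multiplies all genes of a library by 1 factor; whether the day-4 columns were scaled in that way is not known. CA1 made up 33.2% ± 1.16 of the summed level of the 4 genes in 1KI9, 35.3% ± 0.725 in 1D5 and 19.9% ± 0.438 in FL at day 4, and 17.7% ± 2.05, 10.3% ± 0.983 and 2.34% ± 0.0942 in 1KI9, 1D5 and FL in expansion (SD, n = 3 each). CA2 made up 38.7%, 49.2% and 59.7% in 1KI9, 1D5 and FL at day 4, and 76.5%, 84.2% and 77.2% in those clones in expansion. CA8 made up 27.9%, 15.4% and 20.3% at day 4, and 5.52%, 5.39% and 20.4% in expansion, in the same order of clones. In FL the CA8 share was therefore close in both conditions, while CA2 held less and CA1 more at day 4; in the GATA1s clones both CA1 and CA8 held larger shares at day 4 than in expansion.

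The ratio of CA1 to CA2 put the 3 clones in one order in both conditions. It was 0.859 ± 0.0473 in 1KI9, 0.718 ± 0.0207 in 1D5 and 0.334 ± 0.00893 in FL at day 4, and 0.232 ± 0.0355 in 1KI9, 0.123 ± 0.0143 in 1D5 and 0.0304 ± 0.00254 in FL in expansion. No 2 groups overlapped in this ratio. The ratio of CA8 to CA2 at day 4 was 0.720 ± 0.0229 in 1KI9, 0.314 ± 0.00574 in 1D5 and 0.341 ± 0.000866 in FL, so that 1KI9 stood apart there; in expansion it was 0.0724 ± 0.0103 in 1KI9, 0.0642 ± 0.0120 in 1D5 and 0.266 ± 0.0563 in FL. CA1 exceeded CA8 by 3.20 ± 0.0654 to 1 in 1KI9 and 1.93 ± 0.156 to 1 in 1D5 in expansion, while in FL the ratio was 0.116 ± 0.0139.

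**Figure D3:**
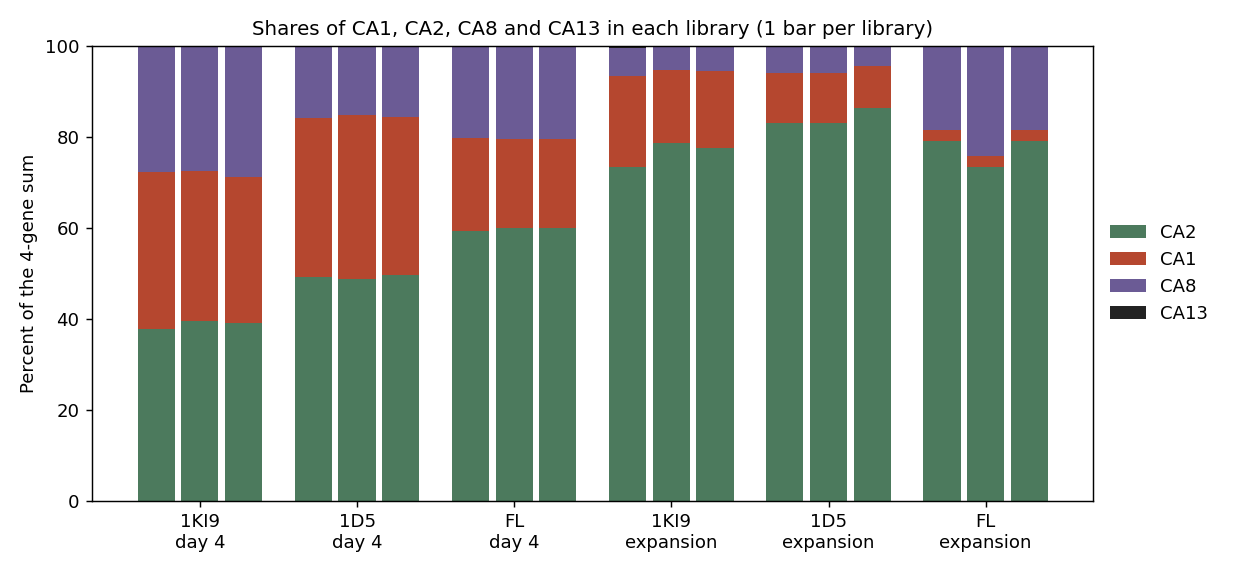
Share of each of the 4 genes in their summed level, 1 bar per library, in percent. CA1 takes 32.2 to 36.1% in the GATA1s libraries at day 4 and 2.25 to 2.43% in the FL libraries in expansion, and CA13 is at most 0.357% in any library.

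The summed level of the 4 genes was 228.8 ± 3.25 in 1KI9, 275.7 ± 5.79 in 1D5 and 372.2 ± 4.82 in FL at day 4, with no overlap. In expansion it was 368.4 ± 24.4 TPM in 1KI9, 393.0 ± 23.5 TPM in 1D5 and 422.7 ± 49.5 TPM in FL, where 1KI9 and 1D5 overlapped each other and FL. With median-of-ratios scaling the expansion sums were 288.9 to 307.6 in 1KI9, below both 1D5 (329.0 to 403.4) and FL (371.1 to 431.5), and the FL sum was higher at day 4 (489.9 ± 8.05) than in expansion (400.0 ± 30.3), opposite to the deposited order. By rank among the 13358 genes, CA2 was 1065th in 1KI9, 635th in 1D5 and 332nd in FL at day 4, and 369th, 285th and 285th in 1KI9, 1D5 and FL in expansion. CA1 was 1278th, 925th and 1113th at day 4 in 1KI9, 1D5 and FL, and 1872nd, 2772nd and 6820th in expansion in the same order.

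Of 11 other carbonic anhydrase genes, 4 were in the table (CA5B, CA7, CA11 and CA14) and 3 passed the minimum; the others were not analysed here. In expansion CA11, a second related protein without enzyme activity, rose in both GATA1s clones, to 8.32 ± 1.11 TPM in 1KI9 and 7.94 ± 0.882 TPM in 1D5, against 3.58 ± 0.0681 TPM in FL. Its log2 differences were 1.02 ± 0.10 and 0.96 ± 0.10 (limma, adjusted p = 7.79e-08 and 6.49e-07). CA7, a cytosolic enzyme best known from brain, fell in both, to 1.11 ± 0.142 TPM in 1KI9 and 1.22 ± 0.376 TPM in 1D5, against 7.61 ± 2.11 TPM in FL, by 2.01 ± 0.14 and 1.94 ± 0.14 on the log2 scale (limma, adjusted p = 1.25e-09 and 7.3e-09). At day 4 CA7 fell in 1KI9 (-0.93 ± 0.14, limma, adjusted p = 1.16e-05) and differed by -0.29 ± 0.14 in 1D5 (adjusted p = 0.0829); it was called lower in both clones with median-of-ratios scaling. CA11 at day 4 averaged 7.01 ± 0.740 in 1KI9, 8.42 ± 0.872 in 1D5 and 7.69 ± 0.155 in FL. CA5B, a mitochondrial enzyme, was called at day 4 in 1KI9 (0.56 ± 0.18, limma, adjusted p = 0.00855), while in 1D5 it differed by 0.26 ± 0.18 (adjusted p = 0.191).

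Bicarbonate made by these enzymes crosses membranes through members of the SLC4 and SLC26 families. Of 14 listed members of these families, not all of them mainly bicarbonate carriers, 10 were in the table and 7 were tested. At day 4, 4 rose in both GATA1s clones (SLC4A2, SLC4A3, SLC26A2 and SLC26A6) and 3 fell (SLC4A1, SLC4A7 and SLC4A8); the median difference of the 7 was 0.60, beside 0.29 over all genes, of which 51.2% were called higher and 14.3% lower. In expansion 2 rose (SLC4A3 and SLC26A2) and the same 3 as at day 4 fell, with a median of 0.22 beside 0.06, and 17.5% of all genes called higher and 8.98% lower. These counts were the same under all 3 scalings.

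SLC4A1, the red cell anion exchanger, averaged 213 ± 4.04 in 1KI9, 355 ± 9.44 in 1D5 and 1368 ± 18.3 in FL at day 4 (limma, adjusted p = 4.78e-06 for 1KI9 and 0.000187 for 1D5). SLC4A2, the anion exchanger of many tissues, averaged 107 ± 0.271 in 1KI9, 101 ± 1.3 in 1D5 and 50.6 ± 2.62 in FL (limma, adjusted p = 6.13e-11 and 2.97e-10). SLC4A7, a sodium bicarbonate cotransporter, was at 0.0467 ± 0.0306 TPM in 1KI9, 0.260 ± 0.0361 TPM in 1D5 and 3.77 ± 0.460 TPM in FL in expansion. SLC26A2, a sulfate transporter of the family, was at 14.4 ± 1.45 TPM in 1KI9, 6.31 ± 0.416 TPM in 1D5 and 1.87 ± 0.261 TPM in FL in expansion. SLC4A1 was thus the most abundant listed transporter in FL at day 4 and, like CA2, was lowest in 1KI9.

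Of 14 carriers of protons, lactate, water and gases, 11 were in the table and all 11 were tested. At day 4, 2 rose in both GATA1s clones (SLC16A3 among them) and 6 fell (AQP1, AQP3, RHCE, RHD, SLC16A1 and SLC16A7), with a median of -0.78 beside 0.29 over all genes (51.2% called higher, 14.3% lower); with equal library totals 5 rose and 5 fell. AQP3, a water and glycerol channel, averaged 6.34 ± 0.403 in 1KI9, 6.42 ± 0.0839 in 1D5 and 73.5 ± 3.26 in FL at day 4, with log2 differences of -3.34 ± 0.13 and -3.33 ± 0.13. SLC16A3, a lactate exporter, averaged 109 ± 7.16 in 1KI9, 101 ± 4.90 in 1D5 and 31.1 ± 1.4 in FL. In expansion 3 rose (RHAG, SLC9A3R1 and SLC16A3) and RHCE fell, whereas 1 rose and 2 fell with median-of-ratios scaling. RHD and RHCE are near-identical genes, so the split of reads between them is uncertain.

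ITPR1, the receptor that CA8 binds, rose in both GATA1s clones in both conditions. At day 4 it averaged 9.94 ± 0.622 in 1KI9, 6.04 ± 0.929 in 1D5 and 1.17 ± 0.170 in FL (limma, adjusted p = 5.1e-12 and 5.3e-10). In expansion the values were 10.4 ± 1.62 TPM in 1KI9, 4.59 ± 0.642 TPM in 1D5 and 2.91 ± 0.147 TPM in FL (limma, adjusted p = 2.69e-09 and 0.00265). CA8 and ITPR1 thus stood in opposite directions against FL in expansion, with CA8 lower and ITPR1 higher. ITPR2 rose as well in both conditions, and ITPR3 was below the minimum. Over all genes, 51.2% were called higher in both clones at day 4 and 17.5% in expansion.

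**Figure D4:**
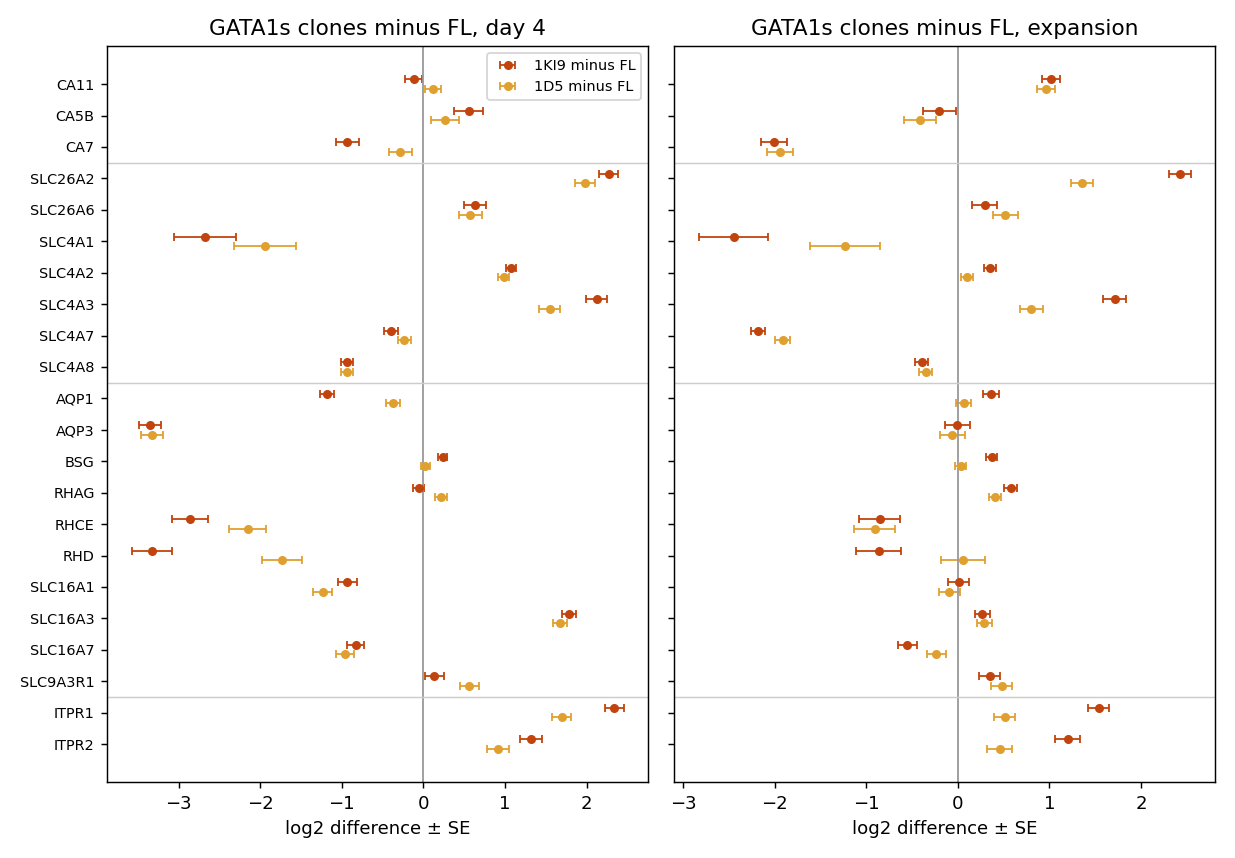
log2(value + 1) differences with SE of the GATA1s clones minus FL for tested genes of the lists (other carbonic anhydrases, bicarbonate transporters, other carriers, inositol trisphosphate receptors), at day 4 and in expansion. AQP3 lies at -3.34 and -3.33 at day 4 and near 0 in expansion, and CA11 lies near 1 in expansion and near 0 at day 4.

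Markers of other blood lineages differed between the clones beside the members, and their part in these results was not tested. Osteoclasts are known for high CA2. Macrophage and osteoclast markers had 5 of 10 genes in the table. At day 4 they summed to 458 to 483 in 1KI9, 343 to 363 in 1D5 and 44.8 to 47.2 in FL. In expansion they summed to 172 to 282 TPM in 1KI9, 27.9 to 46.9 TPM in 1D5 and 4.13 to 7.36 TPM in FL. These sums came mostly from CD68 and ACP5, which rose in both GATA1s clones in both conditions (limma, adjusted p under 0.05 in each), while CTSK, the osteoclast protease, fell in both at day 4 and rose in both in expansion; the defining receptor CSF1R averaged 0.24 TPM or less in every group and was listed at 0 in FL. CA2 was lowest at day 4 in 1KI9, where the sum of these markers was highest, and any link between them was not tested. Megakaryocyte and platelet markers (5 of 9 in the table) summed to 27.83 to 27.98 in 1KI9, 27.5 to 30.1 in 1D5 and 4.25 to 4.63 in FL at day 4, and to 13.4 to 18.6 TPM in 1KI9, 2.18 to 3.99 TPM in 1D5 and 0.350 to 0.640 TPM in FL in expansion, with VWF and GP9 listed at 0 throughout expansion. Eosinophil, basophil and mast cell markers (7 of 9 in the table) summed to 318 to 340 in 1KI9, 181 to 190 in 1D5 and 351 to 369 in FL at day 4, and to 126 to 159 TPM in 1KI9, 80.1 to 101 TPM in 1D5 and 539 to 877 TPM in FL in expansion, with EPX and MS4A2 listed at 0 throughout day 4. In these last sums PRG2 led in FL, and single markers ran against the sums. At day 4, 4 of the 5 tested rose in both GATA1s clones (HDC, TPSAB1, FCER1A and TPSB2) and PRG2 fell. TPSAB1 was not called with median-of-ratios scaling. In expansion TPSB2 and FCER1A rose and PRG2 fell. Over all genes, 51.2% were called higher and 14.3% lower in both clones at day 4, and 17.5% and 8.98% in expansion. PRG2 in expansion averaged 62.1 ± 22.6 TPM in 1KI9, 81.5 ± 12.7 TPM in 1D5 and 674 ± 177 TPM in FL, and TPSB2 averaged 69.0 ± 10.3 TPM in 1KI9, 5.77 ± 2.43 TPM in 1D5 and 2.71 ± 0.737 TPM in FL. TPSAB1 and TPSB2 are near-identical genes, so the split of reads between them is uncertain.

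The genes whose levels ran most like those of each member were found by Pearson's r of log2(value + 1) over the 18 libraries, which share 6 groups and the separate scaling of the conditions; r is a description here. For CA1 these were VPS9D1, MXRA8, ADA, ZFP36 and PAQR7, with r of 0.96 to 0.98. MXRA8, a cell surface protein that some alphaviruses use as a receptor, averaged 76.5 TPM in 1KI9, 38.1 TPM in 1D5 and 4.77 TPM in FL in expansion, and ADA, adenosine deaminase, averaged 72.7, 29.2 and 7.69 TPM in the same clones. For CA2 they were EVA1C, CHTOP, BTF3, CISD2 and NEK2, with r of 0.96 to 0.99. EVA1C averaged 2.30 in 1KI9, 4.02 in 1D5 and 7.56 in FL at day 4. For CA8 they were F2RL2, FBXO15, FANCF, ZNF385B and MOB3B, with r of 0.83 to 0.90. For CA13, whose values are low, they were BMP5, CCDC173, FMO5, GPR174 and ADAMTS9, with r of 0.94 to 0.96. All 5, like CA13, were highest in 1KI9 in expansion, so these r mainly restate that group. BMP5 averaged 1.17 TPM there and FMO5 1.38 TPM, and both passed the minimum only through that group. By Spearman's rho the 5 highest genes shared 0 with these for CA1, 0 for CA2, 3 for CA8 and 0 for CA13. Among the members themselves r over the 18 libraries was -0.61 for CA1 and CA2, -0.27 for CA1 and CA8, and -0.31 for CA2 and CA8.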

How the data were processed

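Gene values of 18 libraries were taken from 1 deposited table of 13358 genes. Per the submitters' processing notes, Trim Galore 0.60, STAR 2.7, RSEM 1.31 and hg38 (GRCh38.p12) were used. Expansion columns hold TPM as deposited, with library sums of 943734 to 950736. Day-4 columns were deposited as a scaled signal: their sums run from 814583 to 1081251, 3 of them above 1000000, so they are not plain TPM, although the tests had been laid out for TPM; how they were scaled is a step that no source used here gives. Neither part holds counts, so the depth is unknown. Of the genes, 13328 were matched by ID to GENCODE 29, which gave coordinates and the symbols of 312 genes without one in the table.

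Differences were fitted with limma 3.58.1 (R 4.3.3; trended variance, 1 mean per group, all 18 libraries) on log2(value + 1), which understates the change of low genes. The minimum was a value of 1 or more in 3 or more libraries (11110 genes). Genes listed at 0 throughout a condition (68 in expansion and 27 at day 4) did not enter comparisons with that condition. P-values are two-sided, with Benjamini-Hochberg adjustment over all genes tested and a threshold of 0.05; called in both clones means past it in each with the same sign. The fit was tested on simulated data. The members and the gene lists were chosen with earlier results of these data known. Listed genes were named where tested, with values for a few; some listed genes are counted but not reported here by name. By likeness, the 5 genes of highest r were named per member. Alternatives were another pseudocount (0.1), no minimum, median-of-ratios scaling, equal library totals (added after seeing the data), the compared libraries alone, a replicate block and leaving out each library.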

Additional observations from a re-analysis of the deposited data

Results flagged for a closer look

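The difference between the GATA1s clones and FL was not the same at day 4 and in expansion for any of the 3 fitted members. Day 4 minus expansion, that difference was -2.05 for CA1, -0.92 for CA2 and 1.46 for CA8 on the log2(value + 1) scale. The difference between 1KI9 and 1D5 also changed with the condition, by -1.02 for CA1, -0.38 for CA2 and 0.62 for CA8. For the members these are descriptions, since the genes were chosen with the comparisons known. The interaction was tested for the other carbonic anhydrases, a list that was also chosen with earlier results of these data known. The value was -0.99 for CA11 (limma, adjusted p = 1.65e-06), 1.37 for CA7 (adjusted p = 2.97e-06) and 0.72 for CA5B (adjusted p = 0.00755). Over all genes, 65.1% were called for the interaction, so calls in this list are not particular to it. CA1 and CA11 thus stood above FL in both GATA1s clones in expansion. At day 4 CA11 averaged 7.01 in 1KI9 and 8.42 in 1D5 against 7.69 in FL, and CA1 differed from FL by 0.03 in 1KI9 and 0.39 in 1D5. CA8 and CA7 were further below FL in expansion than at day 4. The conditions were scaled apart, and the part of that in these values was not tested beyond the scalings given below.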

How the results depend on the processing

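Depth is unknown, and CA13 was fitted only with no minimum. Under another pseudocount, no minimum and the replicate block, all 33 differences of CA1, CA2 and CA8 and all 8 counts of called genes kept direction and call, counts within 1.5 times; with the replicate block the genes called in both clones numbered 2967 in expansion and 7321 at day 4. Whether the replicate numbers pair the samples was not settled. Same-numbered libraries of a condition correlated at -0.13 to 0.42 in their deviations (median 0.080), with 7 of 18 pairs over 0.1. Those with different numbers correlated at -0.44 to 0.28 (median -0.058), with 9 of 36 pairs over 0.1. Within a clone the medians were 0.074 for the same number and -0.043 for different numbers. With the compared libraries alone, the genes called in both clones in expansion numbered 1431 (2919 in the joint fit), CA2 lost its calls in expansion for 1KI9 minus FL (-0.21) and 1KI9 minus 1D5 (-0.23), and CA8 gained one for 1KI9 minus FL at day 4 (-0.24). With median-of-ratios scaling, CA1 at day 4 was -0.35 for 1KI9 minus FL (reversed) and 0.057 for 1D5 minus FL (no call), CA2 was -0.0069 for 1D5 minus FL in expansion (reversed), -0.075 for day 4 minus expansion in FL and -0.25 for the change of 1KI9 minus 1D5 between conditions (no calls), and CA8 was -0.63 for 1KI9 minus FL at day 4 (a call) and 0.30 for day 4 minus expansion in FL (reversed). With equal totals, CA1 was 0.37 for 1KI9 minus FL at day 4 (a call), CA2 was -0.29 for the change of 1KI9 minus 1D5 between conditions (no call), and CA8 was 0.093 for 1KI9 minus FL at day 4 (reversed) and -0.33 for day 4 minus expansion in FL (a call). The share of called genes that were higher was 82.3% for 1KI9 against 1D5 in expansion, 65.0% at day 4, 29.8% for day 4 against expansion in 1KI9, 31.7% in FL and 69.7% for the interaction, and 42.8%, 50.7%, 51.3%, 51.0% and 50.3% with median-of-ratios scaling. Leaving out each library, 25 of the 33 differences kept direction and call. The ranges of the others were 0.18 to 0.27 for CA1 in day 4 minus expansion in 1KI9, -0.27 to -0.12 for CA2 in 1KI9 minus FL in expansion, -0.037 to 0.084 in 1D5 minus FL (below 0 without 1D5 replicate 3 or FL replicate 1) and -0.29 to -0.15 in 1KI9 minus 1D5, and for CA8 -0.25 to -0.23 in 1KI9 minus FL at day 4, -0.15 to 0.031 in 1KI9 minus 1D5 in expansion (above 0 without 1D5 replicate 2), -0.31 to 0.048 in day 4 minus expansion in FL and 0.54 to 0.73 for the change of 1KI9 minus 1D5 between conditions (no call without 1D5 expansion replicate 2). Genes called in 1KI9 against 1D5 at day 4 ranged from 1282 to 2496, the lowest without 1KI9 replicate 3. The cause of these changes was not tested.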

Other observations

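Genes near the members on chromosome 8 were described from the same fit. Within 1000000 bases of the stretch that holds CA13, CA1 and CA2, 6 genes were tested (ATP6V0D2, E2F5, LRRCC1, RBIS, RMDN1 and WWP1). At day 4, 4 of them were called higher in both GATA1s clones, beside 51.2% of all genes; with median-of-ratios scaling 4 were higher and 2 lower, and with equal totals 6 were higher. In expansion RMDN1 was the 1 gene called, as higher, beside 17.5% of all genes. ATP6V0D2, a subunit of the vacuolar proton pump, averaged 5.01 ± 0.201 in 1KI9, 7.79 ± 0.193 in 1D5 and 0.387 ± 0.0306 in FL at day 4 (limma, adjusted p = 2.87e-10 and 1.98e-11). In expansion it averaged 3.60 ± 1.39 TPM in 1KI9, 0.540 ± 0.226 TPM in 1D5 and 0.263 ± 0.0503 TPM in FL. E2F5, a transcription factor of the cell cycle, averaged 14.2 ± 0.867 in 1KI9, 12.1 ± 0.573 in 1D5 and 5.87 ± 0.501 in FL at day 4. Near CA8, RAB2A and CHD7 were tested; both were called higher in both clones at day 4 as deposited, but not with median-of-ratios scaling.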
